A study of Mus musculus with 27 samples.

Results

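The Notch receptors, ligands and Hes-family target genes studied here were Notch1, Notch2, Notch3, Dll1, Dll3, Jag1, Lfng, Hes1, Hes5 and Hey1. They were the 17 of 45101 probe sets on the array that were annotated to exactly 1 of these 10 genes, and all 17 passed the filter on low signals. Expression was measured on 27 Affymetrix arrays of mouse cerebellum, in a study of Hedgehog-driven medulloblastoma and the identity of granule neuron precursors. The groups were Ptc1+/- tumours (2 arrays, from mice with a mutated copy of the Hedgehog receptor gene Ptch1), hGFAP-cre:SmoM2 tumours (6), Olig2-tva-cre:SmoM2 tumours (7), Tlx3-cre:SmoM2 tumours (3), Math1-cre:SmoM2 tumours (3) and cerebellar tissue without tumour (6). SmoM2 is an activated form of Smoothened, the protein that passes the Hedgehog signal into the cell, and it is switched on where the Cre driver is active. The drivers differ in the cells they act in. Math1 (Atoh1) is active in granule neuron precursors, while the human GFAP promoter and Olig2 are active in broader progenitor pools. The tissue without tumour also came from mutant mice. Of its 6 arrays, 2 had the genotype Mxi1-cre:SmoM2, a driver not represented among the tumours, 2 Olig2-tva-cre:SmoM2, 1 Ptc1+/- and 1 hGFAP-cre:SmoM2. Whether the sampled cells in that tissue had recombined, and the ages of the mice, are not stated in the labels. The labels call the tumour arrays biological replicates without saying that each came from a separate mouse, and the p-values therefore cover the spread among these arrays alone.

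Notch signalling passes between touching cells. A ligand of the Delta or Jagged family on a cell binds a Notch receptor on its neighbour, the receptor is cut, and its inner part joins the DNA-binding protein Rbpj to switch on Hes and Hey genes, which encode repressors that hold back neuronal differentiation. In the developing cerebellum the pathway is known for keeping progenitors, granule neuron precursors among them, undifferentiated, and for the development of Bergmann glia.

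Promoter windows of the members were taken from RefSeq (GRCm38.p6), 250 bases before to 50 bases after each start, and 8 of the 10 members matched. They were searched on both strands for TGGGAA, the core of the Rbpj binding motif, which is held by 25.6% of all 32851 windows. Hes5 and Lfng had 2 matches each, a number reached by 3.79% of windows. Dll3 and Jag1, the ligand genes with the largest differences below, had none, and neither had Notch1, Notch2, Notch3 or Dll1. The 4 windows are shown because they set a textbook Notch target and a modifier of the receptors beside the ligands whose signals differed most. Capitals mark the matches, TTCCCA being a match on the other strand. The windows lie at chr4:154960673-154960972 (Hes5, plus strand), chr5:140607091-140607390 (Lfng, plus strand), chr7:28301736-28302035 (Dll3, minus strand) and chr2:137116471-137116770 (Jag1, minus strand).
Hes5: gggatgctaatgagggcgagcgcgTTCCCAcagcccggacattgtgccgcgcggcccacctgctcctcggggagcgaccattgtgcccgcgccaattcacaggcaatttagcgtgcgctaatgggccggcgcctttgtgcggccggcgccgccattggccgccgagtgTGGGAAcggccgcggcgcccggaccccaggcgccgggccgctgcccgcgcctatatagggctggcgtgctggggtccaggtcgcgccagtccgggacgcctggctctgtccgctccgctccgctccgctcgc
Lfng: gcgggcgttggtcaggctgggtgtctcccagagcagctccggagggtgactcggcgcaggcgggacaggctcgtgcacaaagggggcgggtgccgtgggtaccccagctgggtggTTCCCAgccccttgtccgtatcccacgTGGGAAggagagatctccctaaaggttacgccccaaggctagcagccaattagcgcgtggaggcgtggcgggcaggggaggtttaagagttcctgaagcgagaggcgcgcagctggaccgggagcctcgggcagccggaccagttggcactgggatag
Dll3: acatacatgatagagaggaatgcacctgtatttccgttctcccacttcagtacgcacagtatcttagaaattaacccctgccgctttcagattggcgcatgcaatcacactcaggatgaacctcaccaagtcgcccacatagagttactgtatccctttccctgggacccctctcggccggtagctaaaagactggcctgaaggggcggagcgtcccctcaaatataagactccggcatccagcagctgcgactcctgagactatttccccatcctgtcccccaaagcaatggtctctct
Jag1: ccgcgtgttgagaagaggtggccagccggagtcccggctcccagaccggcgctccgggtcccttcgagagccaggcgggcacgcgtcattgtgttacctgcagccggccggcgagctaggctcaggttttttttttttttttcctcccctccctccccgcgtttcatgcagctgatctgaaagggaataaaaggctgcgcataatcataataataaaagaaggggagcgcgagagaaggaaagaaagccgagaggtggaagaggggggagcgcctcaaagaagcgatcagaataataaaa
In Hes5 the matches began 226 and 82 bases before the start, and both extended to GTGGGAA, which contains the shorter motif and occurred at least once in 6.38% of windows and at least 2 times in 0.256%. In Lfng they began 135 and 108 bases before the start, and the second of them extended to GTGGGAA. A 9-base Gli motif, GACCACCCA, was found in 0.253% of all windows and in none of those of the members. A match is a run of letters in the window, not evidence of binding.

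The arrays were not equally bright, with trimmed mean signals from 42.58 to 205.96 before each was rescaled to 123.61. The 7 dimmest were Olig2 replicates 3 to 7, hGFAP replicate 4 and Ptc1+/- replicate 2. Leaving them out keeps only Olig2 replicates 1 and 2 and Ptc1+/- replicate 1 in their groups. The mean log2 ratio of 3′ to 5′ control probe sets, a measure of RNA integrity, reached 1.88. Correlations between arrays of a group lay between 0.753 and 0.942 in Olig2 tumours and between 0.947 and 0.958 in Tlx3 tumours. The tissue labels were checked against marker genes. Of 10 granule precursor genes 8 were higher in tumours, with summed scaled signals of 18010 to 37810 in tumours and 4500 to 8197 in tissue without tumour, and all 9 mitosis genes tested were higher. Genes of mature granule cells (9 of 9), Purkinje cells (7 of 7), interneurons (6 of 6) and oligodendrocytes (8 of 8) were lower. Myeloid genes were higher in 9 of 10 cases, at summed signals of 3694 to 11250 in tumours and 1242 to 1778 in tissue without tumour. Of all genes, 26.4% were higher and 25% lower by the same test, which is described below. In such bulk samples, more cells of a type and more RNA per cell cannot be told apart.

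Against tissue without tumour, 5 of the 10 members were higher over all tumours and none was lower: the ligand genes Dll3 and Jag1 and the target genes Hey1, Hes5 and Hes1. The 3 receptor genes, Dll1 and Lfng did not pass the test. Differences are on the log2 scale, so 1 unit is a doubling, and calls were made with limma at 0.05 after adjustment over all 30107 probe sets. Each gene was counted through its probe set of highest mean signal. Of all 13527 genes, 26.4% were called higher and 25% lower in this comparison, so calls were common. The median difference was 0.70 over the 10 members and 0.02 over all genes. Dll3, Jag1 and Hey1 were above every tissue array without tumour on all 21 tumour arrays, which held for 8.14% of all genes (9.68% were below it on all 21).

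**Figure D1:**
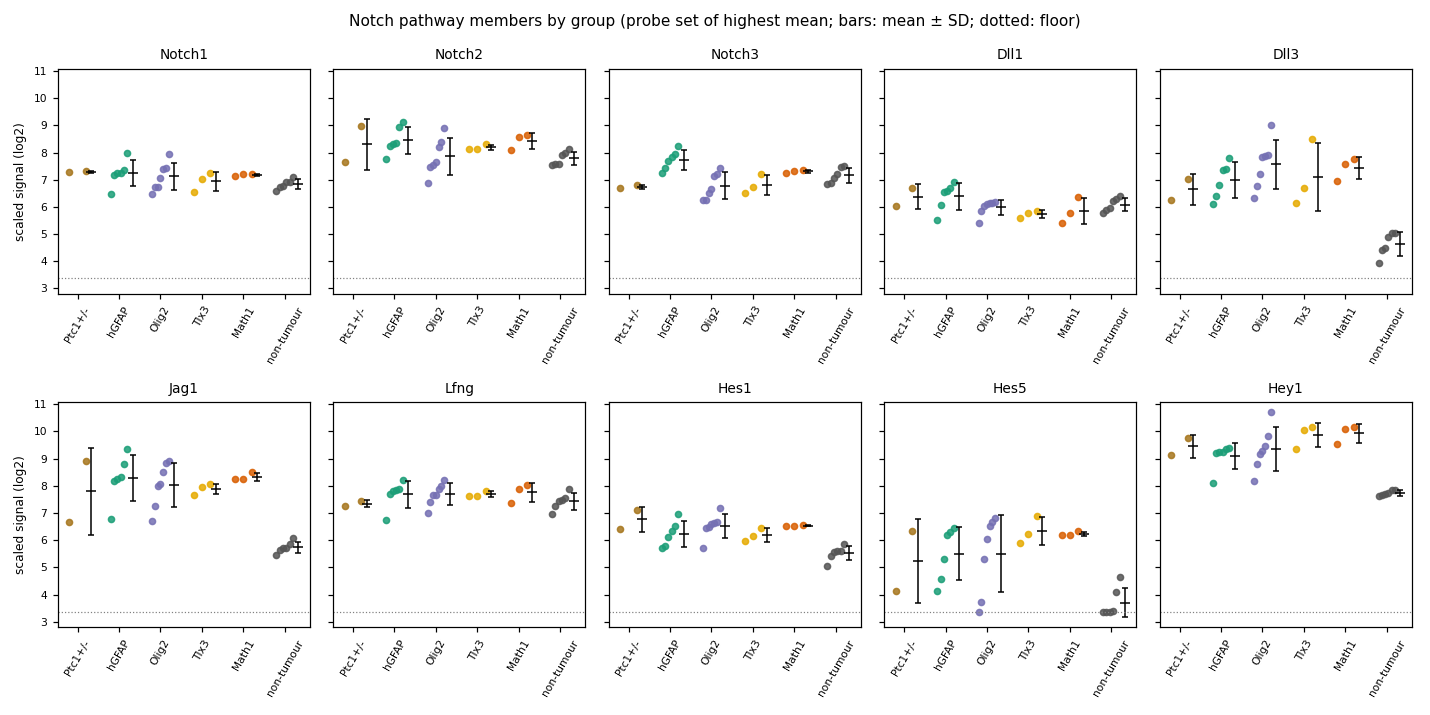
Scaled log2 signal of the 10 member genes on each array (points), with the mean ± SD of each group beside them and the floor of 3.37 dotted; every tumour group stands left of the tissue without tumour. In Dll3, Jag1 and Hey1 no tumour array overlaps the 6 arrays of tissue without tumour, whereas the hGFAP and Olig2 arrays overlap it in the receptor genes, Dll1 and Lfng.

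Among the ligands, Dll3 differed most. Dll3 encodes a divergent Delta protein that does not activate receptors on neighbouring cells and acts inside the cell as an inhibitor. It read 7.04 and 6.24 in Ptc1+/- tumours, 6.11 to 7.81 in hGFAP tumours (median 7.08), 6.32 to 9.03 in Olig2 tumours (median 7.83), 6.68, 6.13 and 8.51 in Tlx3 tumours and 7.58, 6.97 and 7.76 in Math1 tumours, against 3.92 to 5.05 in tissue without tumour (median 4.70). No tumour array overlapped the tissue without tumour, and none of the 6 arrays without tumour was above the signal level used as filter, so Dll3 was tested because of its tumour signal. The difference over all tumours was 2.50 (SE 0.32, limma adjusted p = 1.98e-07), a 5.67-fold change. The tumour groups themselves overlapped, and the spread was widest in Tlx3 tumours (SD 1.25, n = 3).

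Jag1, a ligand that activates Notch receptors on neighbouring cells, read 8.93 and 6.67 in Ptc1+/- tumours, 6.79 to 9.36 in hGFAP tumours (median 8.29), 6.69 to 8.92 in Olig2 tumours (median 8.05), 8.05, 7.67 and 7.94 in Tlx3 tumours and 8.24, 8.49 and 8.26 in Math1 tumours, against 5.47 to 6.07 in tissue without tumour (median 5.72). The lowest tumour array still lay above the highest array without tumour. Over all tumours Jag1 was 2.32 higher (SE 0.31, limma adjusted p = 3.01e-07), or 4.99-fold. The 4 lowest tumour values, 6.67 to 7.24, were on Ptc1+/- replicate 2, Olig2 replicates 6 and 3 and hGFAP replicate 4, all among the 7 dimmest arrays. Without those 7 arrays the difference was 2.74.

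The other Delta ligand measured, Dll1, an activating ligand known for lateral inhibition in neural progenitors, overlapped between tumours and tissue without tumour in every group of more than 3 arrays. It lay between 5.40 and 6.90 on the 21 tumour arrays (median 6.08) and between 5.76 and 6.40 on the arrays without tumour (median 6.09). The difference was -0.02 (95% interval -0.41 to 0.37, limma adjusted p = 0.946). Lfng, a sugar transferase in the Golgi that changes which ligands a Notch receptor responds to, lay between 6.74 and 8.22 in tumours (median 7.70) and between 6.96 and 7.89 in tissue without tumour (median 7.46). Its difference of 0.20 (95% interval -0.17 to 0.58) did not pass the test (limma adjusted p = 0.388).

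Of the target genes, Hey1 was separated from tissue without tumour on every array. Hey1 encodes a repressor that is known as a Notch target in several tissues. It read 9.76 and 9.15 in Ptc1+/- tumours, 8.10 to 9.40 in hGFAP tumours (median 9.25), 8.19 to 10.71 in Olig2 tumours (median 9.28), 9.37, 10.07 and 10.17 in Tlx3 tumours and 10.18, 10.10 and 9.53 in Math1 tumours, against 7.61 to 7.85 in tissue without tumour (median 7.72). All 21 tumour arrays stood above the 6 without tumour, whose SD was 0.10. The difference was 1.81 (SE 0.24, limma adjusted p = 2.14e-07), or 3.50-fold.

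Hes5, a repressor whose level is widely used as a readout of Notch activity in neural progenitors, was the most variable member in tumours. It read 6.33 and 4.13 in Ptc1+/- tumours, 4.14 to 6.46 in hGFAP tumours (median 5.75), 3.37 to 6.83 in Olig2 tumours (median 6.05), 5.90, 6.23 and 6.88 in Tlx3 tumours and 6.33, 6.19 and 6.18 in Math1 tumours, against 3.37 to 4.63 in tissue without tumour (median 3.38). The value 3.37 is the floor, and 3 of the 6 arrays without tumour and 1 Olig2 array were at it. As with Dll3, none of the 6 arrays without tumour was above the filter level (14 of 21 tumour arrays were), so Hes5 was tested because of its tumour signal. Every Tlx3 and Math1 array was above the tissue without tumour, whereas hGFAP replicates 1 and 4, Olig2 replicates 3 and 6 and Ptc1+/- replicate 2 fell within its range. Of these 5 arrays 4 were among the 7 dimmest, and hGFAP replicate 1 was not. Over all tumours Hes5 was 2.05 higher (SE 0.44, limma adjusted p = 0.000273). The size depends on the floor: it was 2.74 with signals floored at 1 and 1.03 with the floor at the 40th percentile, and it stayed past the threshold in both.

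Hes1, a repressor under Notch and other signals, changed least of the 5. It read 6.43 and 7.10 in Ptc1+/- tumours, 5.70 to 6.97 in hGFAP tumours (median 6.23), 5.70 to 7.20 in Olig2 tumours (median 6.58), 6.16, 5.97 and 6.46 in Tlx3 tumours and 6.54, 6.52 and 6.56 in Math1 tumours, against 5.05 to 5.86 in tissue without tumour (median 5.60). On 18 of the 21 tumour arrays it was above every array without tumour, and 3 arrays overlapped. The difference was 0.93 (SE 0.19, limma adjusted p = 0.000222), or 1.90-fold, and without rescaling of the arrays it was 0.58 (adjusted p = 0.0992).

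On the probe sets they were counted through, the receptor genes were measured well above the filter level on every array, and none was called over all tumours. Notch1 lay between 6.49 and 7.99 in tumours (median 7.21) and between 6.57 and 7.11 in tissue without tumour (median 6.84), a difference of 0.32 (95% interval -0.06 to 0.71, limma adjusted p = 0.166). Notch2, the receptor that other work places in granule neuron precursors, lay between 6.87 and 9.11 in tumours (median 8.23) and between 7.54 and 8.14 in tissue without tumour (median 7.74). Its difference of 0.47 (limma adjusted p = 0.0955) did not pass the test. Notch2 was called with array weights (0.51, limma adjusted p = 0.0141) and with array brightness as a covariate (0.72, 0.00245). The difference was 0.78 without the 7 dimmest arrays and 0.60 without Ptc1+/- replicate 2. Both of these fits keep Ptc1+/- replicate 1 alone in its group. Notch3, known mainly from the smooth muscle cells and pericytes of vessels, lay between 6.24 and 8.24 in tumours (median 7.22) and between 6.83 and 7.51 in tissue without tumour (median 7.15), a difference of -0.09 (95% interval -0.46 to 0.28, limma adjusted p = 0.718). Of the 21 tumour arrays, 14 for Notch1, 13 for Notch2 and 4 for Notch3 lay above every array without tumour.

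Cells other than granule precursors can carry these genes, so their markers are given beside the members. Of 11 astrocyte and Bergmann glia genes 2 were higher and 9 lower in tumours, with summed signals of 5795 to 19730 in tumours and 19300 to 24720 in tissue without tumour. Of 7 endothelial genes none was higher and 3 were lower, at 361.7 to 703.7 in tumours and 442 to 796.2 in tissue without tumour. Of 6 mural cell genes 1 was higher and 2 were lower, at 545.2 to 1150 in tumours and 684.9 to 1108 in tissue without tumour. Of 7 neural stem cell genes 4 were higher and 1 lower, at 2896 to 6445 in tumours and 1791 to 2246 in tissue without tumour. Myeloid genes rose as given above. Of 6 oligodendrocyte precursor genes 5 were higher and none lower, at 1953 to 5473 in tumours and 596.1 to 1109 in tissue without tumour. Cspg4 was on both this list and that of mural cells. The part of stem-like, oligodendrocyte precursor, myeloid and dividing cells in the members' differences was not tested.

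Each group of tumours was next compared with the same tissue without tumour, so these 5 comparisons share their controls. Dll3, Jag1 and Hey1 were called higher in all 5 groups. Dll3 differed by 2.00 in Ptc1+/-, 2.34 in hGFAP, 2.92 in Olig2, 2.46 in Tlx3 and 2.80 in Math1 tumours. Jag1 differed by 2.05, 2.53, 2.28, 2.14 and 2.58 in the same order of groups, and Hey1 by 1.72, 1.36, 1.62, 2.14 and 2.21. Hes5 was called in 4 groups, at 1.79 in hGFAP, 1.79 in Olig2, 2.63 in Tlx3 and 2.53 in Math1 tumours, and in Ptc1+/- tumours it was 1.53 (limma adjusted p = 0.127). Hes1 was called at 1.24 in Ptc1+/-, 0.72 in hGFAP, 1.01 in Olig2 and 1.01 in Math1 tumours, and in Tlx3 tumours it was 0.67 (limma adjusted p = 0.0734). In hGFAP tumours Notch3 was called as well, at 0.56 (limma adjusted p = 0.043).

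The members called higher were thus 4 of 10 in Ptc1+/-, 6 in hGFAP, 5 in Olig2, 4 in Tlx3 and 5 in Math1 tumours, and none was lower in any group. The shares of all genes called higher were 16.9% in Ptc1+/-, 21.5% in hGFAP, 24.1% in Olig2, 18.7% in Tlx3 and 18.7% in Math1 tumours. Those called lower were 17.8%, 18.6%, 24.5%, 19.5% and 17.5% in the same order. The Ptc1+/- calls rest on 2 arrays. Without Ptc1+/- replicate 1, the brighter of them, Hes1 was the single member called there, and without replicate 2 Hes1 lost and Hes5 gained its call; in both fits the lone array is assumed to vary like the other groups. The Notch3 call in hGFAP tumours was lost without hGFAP replicate 2, 3, 5 or 6, and without replicate 1, 2, 3 or 6 of the tissue without tumour. The Hes1 call in hGFAP tumours was lost without hGFAP replicate 6 (0.57, adjusted p = 0.0637) or replicate 3 of the tissue without tumour (0.62, 0.0511), and also without rescaling (0.28, 0.605), after rescaling to a common median (0.59, 0.0543) and without the 5 arrays of highest 3′ to 5′ ratio (0.58, 0.107). Notch2 in hGFAP tumours, at 0.67 (adjusted p = 0.0579), was called when hGFAP replicate 4, Olig2 replicate 1 or 6, or either Ptc1+/- array was left out, and under 9 of 19 other alternatives (adjusted p from 0.00102 to 0.77 over the 19). Hes1 in Tlx3 tumours was called without Olig2 replicate 6 (adjusted p = 0.0493) and under 7 of 19 other alternatives (adjusted p from 0.0129 to 0.0958 over the 19). Notch1 was called in hGFAP tumours without hGFAP replicate 1 (0.57, adjusted p = 0.0491).

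**Figure D2:**
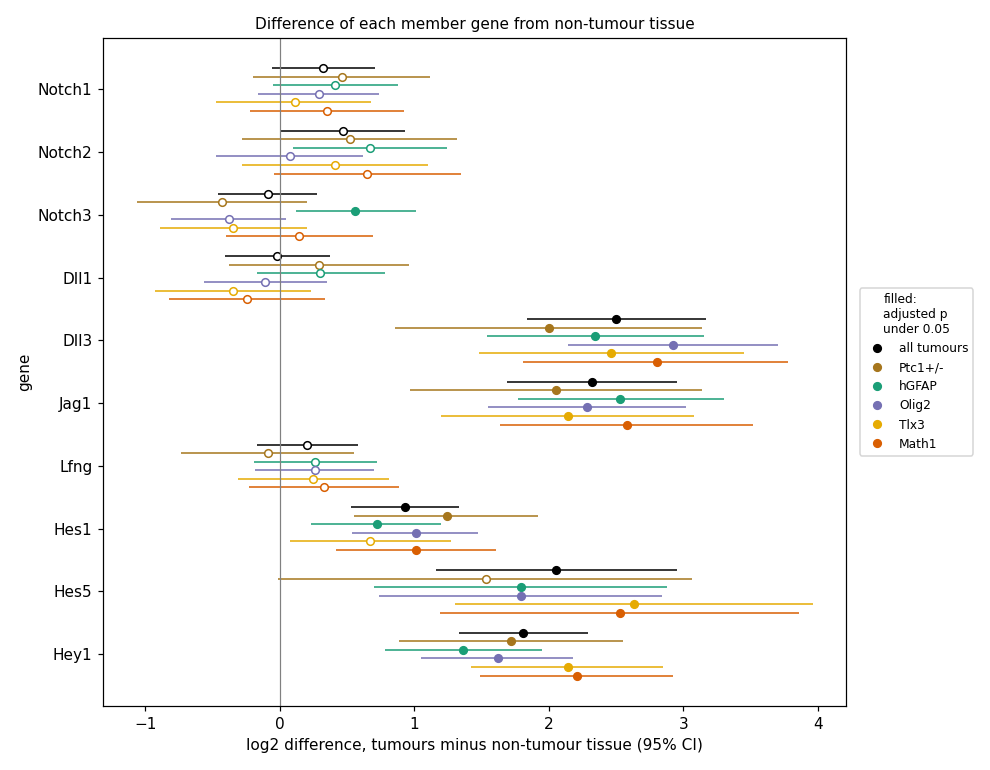
Log2 difference of each member gene, tumours minus tissue without tumour, with its 95% confidence interval, for all tumours and each tumour group; filled points passed an adjusted p of 0.05. Intervals of Dll3, Jag1 and Hey1 lie above 0 in every group, and those of Dll1, Lfng and Notch1 cross 0 in every group.

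The tumour groups were then compared with each other. Ptc1+/- tumours against the 4 SmoM2 groups gave 0 of 10 members called (0 with an unadjusted p under 0.05), while 0.318% of all genes were called. The intervals remained wide with 2 arrays: Dll3 was -0.63 (95% interval -1.68 to 0.42), Jag1 -0.33 (-1.32 to 0.66) and Hes5 -0.66 (-2.07 to 0.75). hGFAP and Olig2 tumours against Tlx3 and Math1 tumours also gave 0 called members, with 0.0296% of all genes called. Hey1 was the single member with an unadjusted p under 0.05 there, averaging 9.22 in hGFAP and Olig2 tumours and 9.90 in Tlx3 and Math1 tumours, a difference of -0.68 (95% interval -1.18 to -0.18, limma adjusted p = 0.229). Dll3 and Hes1 differed by 0.00 (-0.69 to 0.69) and 0.02 (-0.40 to 0.43), and Hes5 by -0.79 (-1.72 to 0.14). Tlx3 tumours against Math1 tumours gave 0 called members (0 unadjusted), as for all genes (0%).

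The single call between tumour groups was Notch3, higher in hGFAP tumours than in Olig2 tumours. Notch3 read 7.23 to 8.24 on the 6 hGFAP arrays (median 7.76) and 6.24 to 7.43 on the 7 Olig2 arrays (median 6.67). The ranges overlapped on hGFAP replicates 1 and 4 and Olig2 replicate 1, at 7.43, 7.23 and 7.43. The difference was 0.95 (SE 0.21, limma adjusted p = 0.022), or 1.93-fold, and 1.54% of all genes were called higher in hGFAP tumours (2.42% in either direction). It was called under 13 of 19 alternatives, with differences of 0.70 to 1.24. The call was lost in a fit on the arrays of these 2 groups alone (0.95, adjusted p = 0.178) and without rescaling (1.18, 0.152). It was lost with the mean of the gene's probe sets (0.70, 0.0569), with the replicate block (0.90, 0.0615) and with the 3′ to 5′ ratio as a covariate (0.86, 0.054). Without the 7 dimmest arrays, where only Olig2 replicates 1 and 2 remained, the difference was 0.99 and the call was lost. It was also lost without Olig2 replicate 5, 6 or 7 or hGFAP replicate 5 (0.86 to 0.93, adjusted p 0.0501 to 0.0601). Its second probe set differed by 0.45 (adjusted p = 0.374). Over the 4 SmoM2 groups together, none of the 10 members was called by limma's F statistic (1 with an unadjusted p under 0.05), where 0.591% of all genes were. Notch3 had an adjusted p of 0.0655 there.

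Markers of mural cells and astroglia were set beside Notch3 in these groups. Of 6 mural genes 1 and of 11 astroglial genes 2 were called higher in hGFAP tumours and none lower, with median differences of 0.48 and 0.28 and 0.09 over all genes. The mural gene Pdgfrb, a receptor of pericytes, averaged 5.48 in hGFAP tumours and 4.26 in Olig2 tumours, a difference of 1.23 (limma adjusted p = 0.0275). Both means lay under the signal level used as filter. Against tissue without tumour, none of the 6 mural genes was called in hGFAP tumours, and in Olig2 tumours 1 was higher and 3 were lower. Summed mural signals were 932 to 1150 in hGFAP tumours (median 1012) and 553 to 1035 in Olig2 tumours (median 646.9). The called astroglial genes, Aqp4, a water channel, and Gja1, a gap junction protein, were 1.17 and 1.81 higher in hGFAP tumours (limma adjusted p = 0.0144 and 0.0152). Summed astroglial signals were 12020 to 19730 in hGFAP tumours and 9446 to 15200 in Olig2 tumours. None of 7 endothelial genes was called, and their sums overlapped, at 455.2 to 703.7 in hGFAP tumours and 409.4 to 637.9 in Olig2 tumours. Other marker lists shifted as well. The median difference was 0.96 for 7 Purkinje genes and 0.50 for 6 interneuron genes, with none called. It was 0.64 for 9 mature granule genes and 0 for 10 myeloid genes, with 1 of each called higher. Mitosis, oligodendrocyte precursor, neural stem cell and granule precursor genes went the other way, at -0.57, -0.32, -0.25 and -0.10, with none called. The part of any of these cells in the Notch3 difference was not tested.

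Several members had more than 1 probe set, and these did not always give the same picture. Over all 17 probe sets, 7 were called higher over all tumours and none lower, where 24.4% of all probe sets were called higher. The second Hes5 probe set, 1456010_x_at, differed by 1.22 (SE 0.37, limma adjusted p = 0.00701). It lends no support to the first, since 3 of 21 tumour arrays and 0 of 6 arrays without tumour were above the filter level, so that it entered the test through a few tumour arrays. Jag1 1421106_at was called at 1.28 (SE 0.28, limma adjusted p = 0.000322), but it too entered through 6 of 21 tumour arrays, with 0 of 6 arrays without tumour above the filter level. It averaged 4.96 in Ptc1+/-, 5.31 in hGFAP, 5.59 in Olig2, 4.55 in Tlx3 and 4.29 in Math1 tumours, against 3.66 in tissue without tumour. The hGFAP and Olig2 values stood 1.03 above those of Tlx3 and Math1 tumours on this probe set, which did not pass (limma adjusted p = 0.143), and the main Jag1 probe set differed there by 0.05.

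The third Jag1 probe set, 1421105_at, was not called, at -0.15 (limma adjusted p = 0.735), and averaged 5.02 in tumours and 5.17 in tissue without tumour. The Jag1 difference was 1.15 when the gene's probe sets were averaged. The other probe sets of Notch1, Notch2, Notch3 and Lfng differed by 0.19, -0.15, 0.38 and 0.20, and none was called. Over the 27 arrays they correlated with the counted probe sets at 0.02, -0.4, 0.36 and 0.15 in that order, so values of these genes rest on 1 probe set each. For Hes5 the correlation was 0.79, and for the main Jag1 probe set it was 0.69 with 1421106_at and 0.14 with 1421105_at. Lfng 1449943_at was near the floor except on Olig2 replicates 5, 6 and 7, which read 6.46, 6.08 and 6.39, and the next highest array of any group was 4.88. The same 3 arrays were among the 7 dimmest and had the 3 lowest 3′ to 5′ ratios, -0.15, -0.13 and -0.12. The part of array quality in that Lfng signal was not tested.

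**Figure D3:**
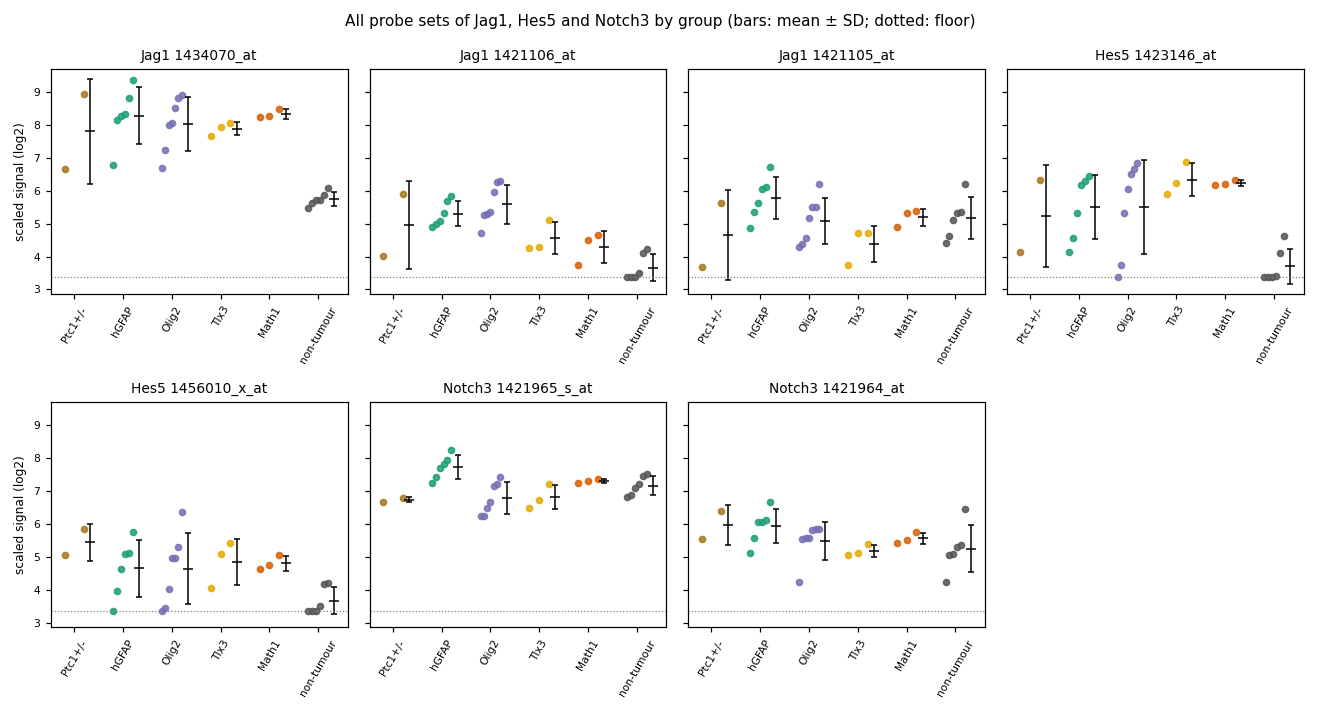
Scaled log2 signal of every probe set of Jag1, Hes5 and Notch3 on each array (points), with mean ± SD per group and the floor of 3.37 dotted. Tumour arrays lie above tissue without tumour on Jag1 1434070_at and mostly on 1421106_at, and overlap it on 1421105_at; for Notch3, hGFAP arrays lie above most Olig2 arrays on 1421965_s_at.

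Around the members, 54 other genes of the pathway were listed and 47 of them tested; Maml2, Hes2 and Hey2 were below the filter, and 4 others had no probe set annotated to them alone. Of these, 17 were higher and 12 lower over all tumours, where 26.4% of all genes were higher and 25% lower. The lower count is near the background, and whether the higher count exceeds it was not tested. The median difference was 0.29, against 0.02 over all genes. The list was chosen for what the genes do, with earlier results of these arrays known. Ligand handling split. Neurl1b, a ubiquitin ligase that acts on ligands, was at least 3.39 higher (limma adjusted p = 7.96e-14). The value is a bound because all 6 arrays without tumour were at the floor, where they show no spread. Neurl1b was thus tested because of its tumour signal. Its relative Neurl1a averaged 7.00 in tumours and 8.90 in tissue without tumour, a fall of 1.90 (adjusted p = 1.84e-09), and Mib2 fell by 0.59. Of 6 further ligand genes Dlk2, a Delta-like protein, was 0.72 higher (adjusted p = 0.0397), while Dner, a ligand-like protein of Purkinje cells, fell by 2.27 (adjusted p = 9.13e-10) beside the Purkinje markers, and Cntn1, an adhesion protein, fell by 1.86. Notch4, the remaining receptor, was at 0.45 (adjusted p = 0.247).

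All 4 receptor glycosylation genes tested were called, 3 higher and 1 lower, where 51.4% of all genes were called in either direction. Mfng, a fringe relative of Lfng, averaged 7.10 in tumours and 4.36 in tissue without tumour, a difference of 2.74 (limma adjusted p = 2.03e-09). It was called in each of the 5 tumour groups, which share their controls. Its mean without tumour lay under the filter level, with 1 array at the floor, so Mfng too was tested because of its tumour signal. Poglut1 and Pofut1, which add the first sugars to Notch receptors, rose by 0.77 and 0.44, and the third fringe, Rfng, fell by 0.78. Of 8 cleavage genes Adam17, a protease at the cell surface, was 1.10 higher (adjusted p = 6.34e-05), while Psen2, Aph1b and Aph1a, parts of gamma-secretase, fell by 1.36, 1.02 and 0.69. Aph1b was also 1.76 lower in Ptc1+/- than in SmoM2 tumours (adjusted p = 0.0295).

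In the nuclear complex, Rbpj itself was 0.71 higher (limma adjusted p = 2.34e-05), as were Hdac1 (0.80), Maml1 (0.53) and Snw1 (0.51), whereas Kat2b, an acetyltransferase, fell by 1.57 (adjusted p = 1.2e-09). Nrarp, a Notch target that feeds back on the receptor's inner part, was 1.47 higher (adjusted p = 2.05e-05), and Numbl and Dtx1 were 0.75 and 0.48 higher. Fbxw7, which marks the active receptor for breakdown, fell by 2.16 (adjusted p = 6.01e-12), and Numb and Itch fell by 0.86 and 0.56. Of 8 further genes, listed as targets or as Hes and Hey relatives, 4 rose and none fell, where 26.4% of all genes were called higher and 25% lower. The 4 that rose were Myc (at least 3.07), the cyclin gene Ccnd1 (2.53), the radial glia gene Fabp7 (1.57) and Hes6 (1.08). For Myc 5 of 6 arrays without tumour were at the floor, so Myc too was tested because of its tumour signal. Fabp7 was also counted among the astrocyte and Bergmann glia genes above. Hes6 is an antagonist of Hes1, and its rise is not read here as a rise of a Notch target. Hes3, the lowest of these 8, was at -0.69 (adjusted p = 0.168). Myc and Ccnd1 are known to be under several other signals as well.

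Among proneural genes, which Hes proteins repress, 4 of 7 could be tested. Atoh1 was 4.69 higher (limma adjusted p = 1.66e-12), and Neurod2, a gene of maturing granule neurons, fell by 2.21. Atoh1 was also counted among the granule precursor genes above, and Neurod2 among those of mature granule cells. Neurod4 was at least 2.40 higher. All 6 arrays without tumour were at the floor for it, so Neurod4 was tested because of its tumour signal. Between hGFAP and Olig2 tumours, Neurod1 and Neurod2 were 1.00 and 1.20 higher in hGFAP tumours (limma adjusted p = 0.041 and 0.0183), and Ccnd1 averaged 10.26 in hGFAP tumours and 11.39 in Olig2 tumours, a difference of -1.13 (adjusted p = 0.00234).

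**Figure D4:**
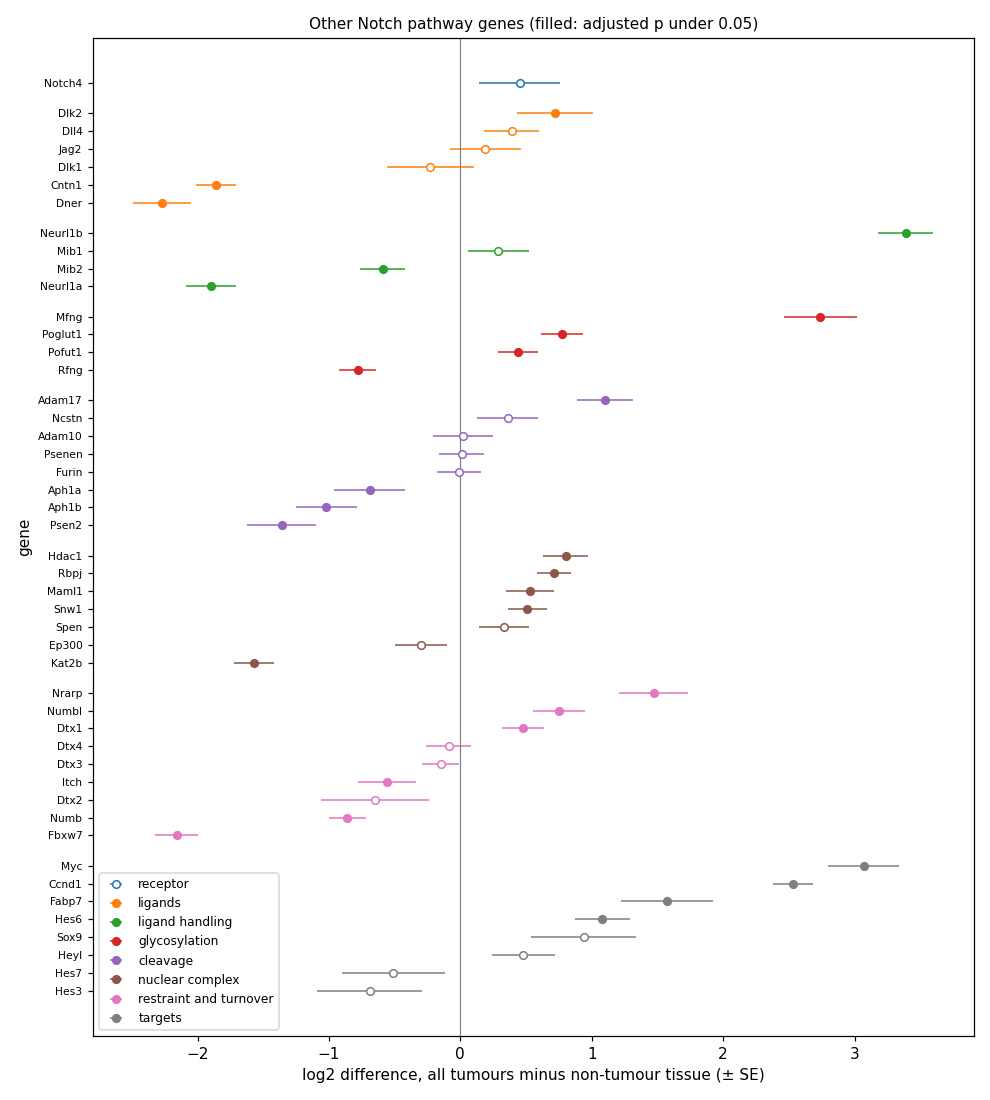
Log2 difference, all tumours minus tissue without tumour, with its SE for 47 other Notch pathway genes in 8 functional groups; filled points passed an adjusted p of 0.05. Neurl1b, Myc, Mfng and Ccnd1 lie highest and Dner, Fbxw7, Neurl1a and Cntn1 lowest.

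For each member, the 3 genes with the most similar signal over the 27 arrays were found by Pearson correlation. The correlations partly repeat the difference between tumours and other tissue. For the members called over all tumours, the value after subtracting each group's mean is therefore given beside them. Hes5 was closest to Lman1 (0.834, and 0.655 within groups), Nrarp (0.833 and 0.804) and the oligodendrocyte lineage gene Olig2 (0.825 and 0.700). Dll3 was closest to Tefm (0.915 and 0.748), Mical1 (0.909 and 0.629) and Mfng (0.895 and 0.563). Jag1 was closest to Cdca4 (0.940 and 0.778), Rbl1 (0.936 and 0.869) and Rhobtb3 (0.932 and 0.758), and Hey1 to Tfdp1 (0.924 and 0.780), Rnf2 (0.921 and 0.710) and Cbx5 (0.919 and 0.785). Hes1 was closest to Nup43 (0.865 and 0.655), C230057M02Rik (0.848 and 0.684) and Wdr46 (0.847 and 0.639). Among the members not called over all tumours, Notch2 was closest to Supt20, Bmp2k and Tjp1 (0.881 to 0.852), Notch3 to D930028M14Rik, Sec16a and Tgfa (0.809 to 0.784), Dll1 to 2210406O10Rik, Hsd17b13 and 4930448F12Rik (0.798 to 0.744), Lfng to Ppil3, 2610316D01Rik and Zmiz1 (0.716 to 0.703) and Notch1 to Hoxb3, Slc12a7 and Wbp1l (0.714 to 0.693). The arrays share their groups and their differences in brightness and RNA integrity.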

How the data were processed

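Biotinylated cRNA was made from 5 ug of RNA (Trizol, then RNeasy) of each of 27 samples of mouse cerebellum, per the labels' protocols. Deposited were linear intensities, MAS5 signals per the submitters' processing notes, for 45101 probe sets; the version of MAS5 and its scaling target are not given in the sources used here. A low intensity may hold background alone, as detection calls were not used. Overall brightness differed, so each array was rescaled to a common 2% trimmed mean (123.61). Signals under 10.3 (the 20th percentile) were raised to it and log2 taken. Probe sets above the table's median (45.6) on at least 3 arrays were tested (30107), and 64 control probe sets were left out. Of the probe sets, 34958 were annotated to 1 gene, 932 to several and 9211 were not listed. No 2 arrays held identical values.

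Groups, taken from the labels, were compared with limma 3.58.1 (R 4.3.3) in a single model with 6 group means, a trend and a robust fit. Tests of a difference were two-sided, with Benjamini-Hochberg adjustment over all probe sets tested and a threshold of 0.05. Group means had equal weight in a contrast. The model was checked on simulated data. The number of arrays limits precision. Alternatives changed the scaling, floor, filter, probe set choice, arrays, moderation, weights, replicate block, covariates and controls, and left out each array.

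Members and gene lists were chosen with earlier results of these data known. Named genes were the members, the highest and lowest of each other pathway list over all tumours, those called between tumour groups, and the 3 genes most correlated with each member; further called genes of small lists and Rbpj were named after their values were seen.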

Additional observations from a re-analysis of the deposited data

Results flagged for a closer look

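The 17 probe sets were examined in Olig2 tumours (7 arrays), hGFAP tumours (6) and tissue without tumour (6). Of these 51 combinations of probe set and group, 5 held an array apart from the others. Chance alone marks about 1 in 20, but the combinations share their arrays and are not independent. Hey1 read 8.10 on hGFAP replicate 4, with the other hGFAP arrays between 9.22 and 9.40. Lfng read 6.74 on the same array, with the others between 7.70 and 8.22; this array had the highest 3′ to 5′ ratio, 1.88. Dll1 read 5.40 on Olig2 replicate 2, with the others between 5.86 and 6.17. The Notch3 probe set 1421964_at read 4.23 on the same array, with the others between 5.54 and 5.86. The Notch1 probe set 1418633_at read 3.77 on replicate 3 of the tissue without tumour, with the others between 6.51 and 7.39. Notch3 was also marked because its difference between hGFAP and Olig2 tumours, 0.95, passed the test (limma adjusted p = 0.022). What lies behind these values was not tested.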

How the results depend on the processing

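Over 19 alternatives and 27 fits that each left out 1 array, the calls of Dll3, Jag1, Hes5 and Hey1 over all tumours stayed past the threshold, with differences of 2.15 to 2.71, 1.15 to 2.74, 1.03 to 2.74 and 1.46 to 1.94 over the 19 alternatives. That of Hes1 was lost without rescaling (0.58, adjusted p = 0.0992). The low end for Jag1 came from averaging its probe sets and that for Hes5 from the floor at the 40th percentile. Leaving out the rescaling moved the median of all probe sets to -0.32 over all tumours (0.03 with it) and to -0.75 for hGFAP and Olig2 against Tlx3 and Math1 tumours (0.02 with it). Without rescaling, members called were 3 in hGFAP and 1 in Ptc1+/- tumours (Notch3, lower) against tissue without tumour, 5 for hGFAP and Olig2 against Tlx3 and Math1 tumours (all lower, with Hes1 at -0.77, adjusted p = 0.0334), 0 for hGFAP against Olig2 and 2 among the 4 SmoM2 groups. The count for hGFAP against Olig2 was also 0 with only the arrays compared, with the replicate block (Notch3 at 0.90, adjusted p = 0.0615), with the 3′ to 5′ ratio as a covariate and without the 7 dimmest arrays; the mean of a gene's probe sets gave 1, Notch2 in place of Notch3. Among the 4 SmoM2 groups the count was 1 (Notch3) with 1 probe set per gene, with array weights and without the 5 arrays of highest 3′ to 5′ ratio. Leaving out 1 array gave 0 to 1 members among the SmoM2 groups, 0 to 1 for hGFAP against Olig2, 1 to 4 for Ptc1+/- and 4 to 7 for hGFAP against tissue without tumour. The Notch3 call in hGFAP tumours against tissue without tumour had adjusted p-values of 0.0524 with the replicate block, 0.0576 without the filter, 0.116 after rescaling to a common median and 0.0739 with the 3′ to 5′ ratio as a covariate. Averaging a gene's probe sets ended the Jag1 calls in Tlx3 (0.75) and Ptc1+/- tumours (0.95), and the floor at the 40th percentile ended the Hes5 call in hGFAP tumours (0.76). Replicate numbers carry no stated pairing of the samples. Arrays of different groups with the same number had residuals correlated from -0.36 to 0.26 (median 0.05), and those with different numbers from -0.34 to 0.59 (median 0). These ranges show no clear pairing, but they cannot exclude one because the arrays also differ in brightness and RNA integrity. The cause of the shifts between alternatives was not tested. Low brightness and the floor limit what can be said of Hes5, Dll3 and the second probe sets of Jag1 and Lfng.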
